A study of Homo sapiens with 25 samples.

Results

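The replication-dependent histone genes encode the bulk histones H1, H2A, H2B, H3 and H4 that package new DNA. In a table of RNA counts with 28395 genes they were found by symbol, after each NCBI Gene number had been matched to its name: H1-1 to H1-6, and every gene named H2AC, H2BC, H3C or H4C followed by a number. This rule uses no measured value, and it gave 69 genes: 6 of H1, 17 of H2A, 18 of H2B, 13 of H3 and 15 of H4. The libraries came from A549 cells, a long-established line of human lung carcinoma, in which TRRAP carries an auxin-inducible degron tag (mAID). TRRAP is a scaffold subunit of histone acetyltransferase complexes, and the compound 5-Ph-IAA triggers degradation of the tagged protein. All cells, controls included, were synchronized by 20 h in 2 mM thymidine, followed by 4 h of release. The 4 groups, with 3 libraries each, were cells given both drugs, cells given prexasertib, which inhibits the kinase CHK1, for 3 h, cells given 5-Ph-IAA at 1 µM for 6 h, and DMSO control cells. The genotype label of the RNA samples reads WT although the growth protocol names the mAID-TRRAP cells, so all 4 groups are taken to carry the tag. The prexasertib dose is given in units that differ between the RNA and the chromatin samples, and no dose is used here.

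Cells make most of their histone mRNA during S phase, when the nucleosomes behind each replication fork have to be filled. These genes lie in clusters and have no introns in their classical form, and their mRNAs end in a conserved stem-loop rather than a tail of adenosines. The stem-loop is bound by SLBP, and the RNA is cut after it by a cleavage complex that holds the U7 small nuclear RNA. The mRNAs are degraded quickly when DNA synthesis stops. The coactivator NPAT drives their transcription as a target of cyclin E and CDK2. The libraries were prepared from poly(A)-selected RNA, so the counts describe the polyadenylated or carried-over fraction of histone RNA and not its total. In bulk RNA of this kind, fewer cells making a transcript and less transcript per cell cannot be told apart.

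Histone promoters differ by histone type, and 6 of them are shown because their genes had the most reads of their type (H1-2, H2BC12, H2AC6, H3C10 and H4C8) or were the second H2B gene by reads (H2BC5). Each line gives the 150 bases before the first listed transcript start in RefSeq (GRCh38.p14), 5′ to 3′ on the strand of the gene. Capitals mark the motifs searched on both strands. They were the CCAAT box, which reads ATTGG on the other strand, the TATA box TATAAA, the octamer core TTTGCAT, which reads ATGCAAA on the other strand, the H1 box AAACACA, the H4 element GGTCCG, and the core of the CHR element of cell cycle genes, TTTGAA. No 2 motifs overlapped in these windows.
H1-2, chr6:26056471-26056620, minus strand: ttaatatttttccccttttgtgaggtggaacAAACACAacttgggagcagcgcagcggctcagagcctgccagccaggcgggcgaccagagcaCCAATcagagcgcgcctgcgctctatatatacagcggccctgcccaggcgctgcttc
H2BC12, chr6:27146859-27147008, minus strand: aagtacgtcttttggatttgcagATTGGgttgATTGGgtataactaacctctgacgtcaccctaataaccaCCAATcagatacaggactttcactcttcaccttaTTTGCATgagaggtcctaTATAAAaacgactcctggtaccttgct
H2BC5, chr6:26157971-26158120, plus strand: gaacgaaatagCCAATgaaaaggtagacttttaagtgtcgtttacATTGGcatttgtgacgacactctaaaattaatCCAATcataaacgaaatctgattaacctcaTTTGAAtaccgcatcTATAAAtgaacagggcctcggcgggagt
H2AC6, chr6:26124022-26124171, plus strand: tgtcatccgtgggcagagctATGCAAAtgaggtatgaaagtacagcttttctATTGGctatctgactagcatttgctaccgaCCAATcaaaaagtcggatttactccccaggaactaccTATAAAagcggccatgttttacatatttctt
H3C10, chr6:27809901-27810050, plus strand: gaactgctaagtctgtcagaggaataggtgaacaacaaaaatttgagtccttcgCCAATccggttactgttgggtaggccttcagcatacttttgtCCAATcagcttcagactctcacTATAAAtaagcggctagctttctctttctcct
H4C8, chr6:26285535-26285684, minus strand: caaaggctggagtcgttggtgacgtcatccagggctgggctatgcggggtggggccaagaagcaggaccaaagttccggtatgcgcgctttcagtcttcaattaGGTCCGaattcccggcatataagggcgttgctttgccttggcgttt

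The table of promoters held 64 of the 69 genes, and a window from 250 bases before to 50 bases after the start was searched in them and in all 27305 promoters of the table. CCAAT, the site of the factor NF-Y, was found in all 6 H1, 16 H2A, 18 H2B and 11 H3 promoters but in 3 of 13 H4 promoters, against 35.7% of all promoters. The H4 element GGTCCG was found in 12 of 13 H4 promoters, against 11.2% of all promoters, and its match in those 12 began 47 to 44 bases before the start. The octamer core, which the factor OCT1 (POU2F1) binds, was found in 14 of 18 H2B and 11 of 16 H2A promoters, against 4.51% of all promoters, and in 1 of 11 H3, 0 of 6 H1 and 0 of 13 H4 promoters. The H1 box was found in 6 of 6 H1 promoters, against 5.76% of all promoters. TATAAA was found in 42 of the 64, against 12% of all promoters. The CHR core TTTGAA was found in 23 of the 64 and in 3 of the 16 promoters of tested genes, against 15.4% of all promoters. A match describes the letters of the window and is not a bound site. There were 11 pairs of an H2A and an H2B gene that start away from each other with 194 to 248 bases between the starts, so the genes of a pair lie on either side of 1 short promoter region. Both genes were measured well enough to be tested in 3 of these pairs, H2BC21 with H2AC20, H2BC4 with H2AC6, and H2BC11 with H2AC11. The searched windows of a pair overlap, so the same site can count for both genes, as the octamer core did for H2BC4 and H2AC6. The H3 promoter with an octamer core, that of H3C4, had the same matches at the same offsets as the promoter of H2AC7.

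Histone reads were few. Total counts per library ran from 10830048 to 17789482, and the 69 genes together had 712 to 1891 reads per library, 0.00573% to 0.0145% of the counts. Across the 12 libraries 6 of the 69 genes had no read, 27 had under 15 reads, and 24 had a read in every library. A filter on low counts left 18 of the 69 genes among the 14658 genes tested: 1 of H1, 5 of H2A, 6 of H2B, 4 of H3 and 2 of H4. Of these 18, 10 did not reach the filter's level of 0.769 CPM (counts scaled to the size of the library) in every library, so some passed through the groups in which they were higher, and counts over the 18 describe them without supporting a difference. H2AC11, H2BC18, H3C2, H4C3 and H4C8 reached that level in no DMSO library. Markers of epithelium, the type of the A549 line, summed to 7290 to 10100 CPM per library (12 genes), with 7290 to 7690 CPM after 5-Ph-IAA and 8540 to 9980 CPM in DMSO cells, and markers of blood cells, fibroblasts, endothelium, muscle and neurons to 86 to 116 CPM (16 genes, 1 of them with no read). TRRAP mRNA averaged 119 ± 20.7 CPM with both drugs, 74.7 ± 10.4 CPM in cells given prexasertib, 133 ± 15.3 CPM after 5-Ph-IAA and 83.2 ± 9.9 CPM in DMSO cells (SD, n = 3 each); the degron acts on the protein, so this does not check the labels.

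**Figure D1:**
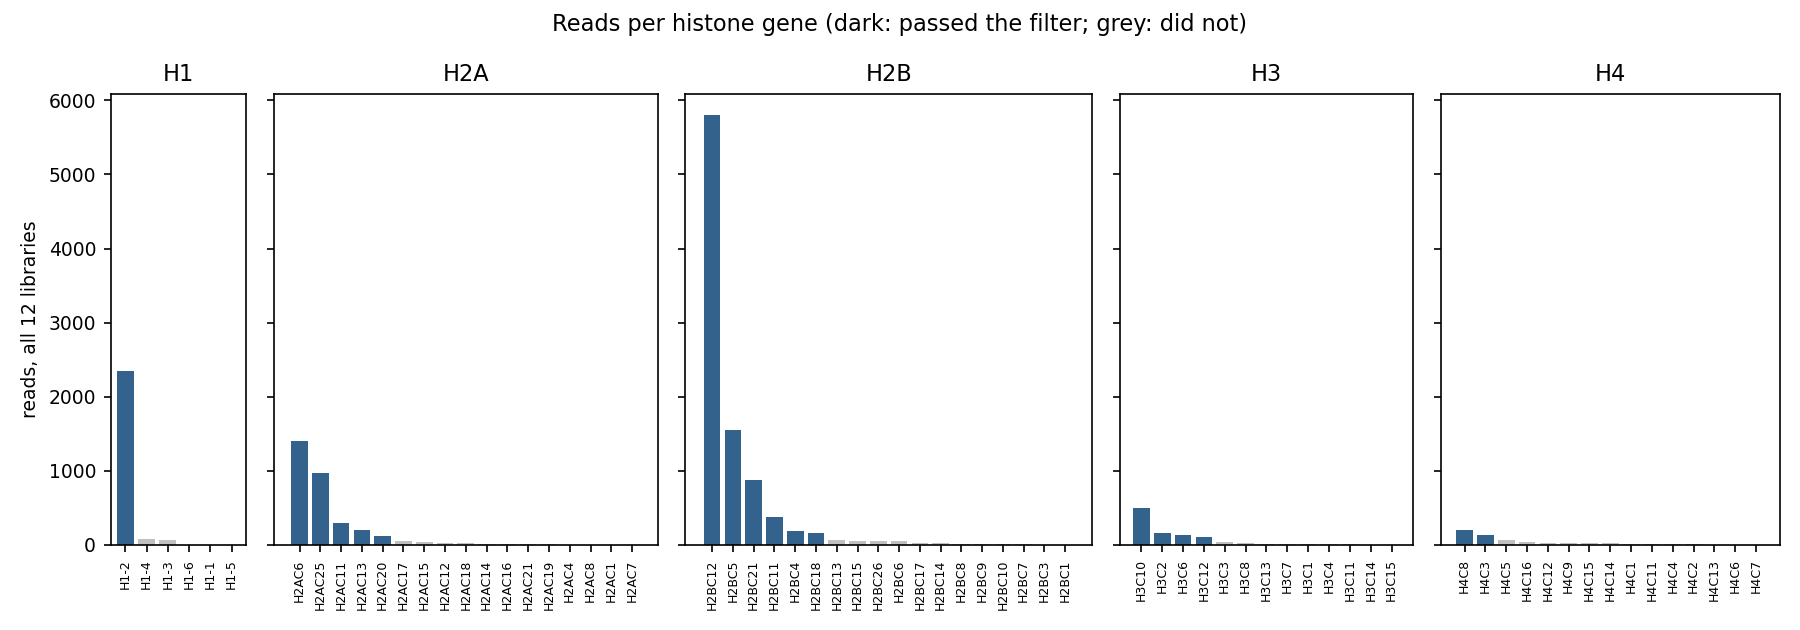
Reads per histone gene summed over all 12 libraries, by histone type, with dark bars for the 18 genes that passed the filter and grey bars for the rest. H2BC12 stands far above every other gene with 5803 reads, and H1-2 follows with 2350.

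A few genes held most of the reads. H2BC12 had 5803 of the 16505 histone reads (35.2%), and the 5 genes with the most reads had 73.2%. H2B genes held 56% of the reads, H2A genes 19.2%, H1 genes 15.1%, H3 genes 6% and H4 genes 3.67%. These are shares of reads and not of transcripts, since the genes differ in length. Within H1, H1-2 alone had 94.2% of the reads, whereas the highest H4 gene, H4C8, had 33.7% of its type. By position, the 34 genes of the proximal block on chromosome 6 (25726063 to 26285534) held 39.7% of the reads and the 21 genes of the distal block (27132316 to 27893891) held 46.3%. The 11 genes of chromosome 1 at 149782689 to 149887965 held 7.59%, the 2 genes of chromosome 1 at 228457364 to 228458558 held 6.11%, and H4C16 on chromosome 12 held 0.261%. In RefSeq 8 of the 69 genes span over 1 kb, longer than a classical histone gene (H2BC12, H2BC5, H2BC4, H2BC18, H2BC21, H3C4, H3C6 and H4C15), and they held 53% of the reads.

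Some counts cannot be assigned to a single gene. No source used here gives the strand setting or the treatment of reads with several matches, and the coding sequences of histone genes of a type are close to each other. Among the tested genes, the annotated span of H2BC12 contains H4C9 (28 reads), that of H2BC5 overlaps the antisense RNA gene H2BC6-AS1 and the pseudogene LARP1P1, and that of H2BC18 overlaps FCGR1A and LOC124904411. Their values are uncertain to that extent. The same holds for the near-identical copies in the larger block of chromosome 1, where H2AC18 and H2AC19 had 22 and 6 reads, H3C14 and H3C15 had 3 and 0 reads, and H4C14 and H4C15 had 24 and 25 reads.

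Summed over all 69 genes, histone reads were higher in each treated group than in DMSO cells. The sum was 130, 139 and 131 CPM with both drugs, 144, 148 and 122 CPM in cells given prexasertib, 92.2, 86.3 and 91.2 CPM after 5-Ph-IAA, and 67.2, 62.6 and 60.8 CPM in DMSO cells. Every library of both prexasertib groups lay above every library without prexasertib, the 5-Ph-IAA libraries lay between those and the DMSO libraries, and both prexasertib groups overlapped each other. Relative to DMSO cells the group means stood at 2.1-fold with both drugs (log2 ratio 1.07), 2.17-fold with prexasertib (1.12) and 1.42-fold with 5-Ph-IAA (0.50). Both drugs stood at 1.48-fold of 5-Ph-IAA alone (0.57) and at 0.968-fold of prexasertib alone (-0.05). No test was made on a sum, since its members were chosen as a group. The 51 genes outside the 18 gave a sum of their own. With prexasertib it was 2.04-fold of DMSO cells, all 3 libraries above all 3, whereas with 5-Ph-IAA it was 0.955-fold and the groups overlapped. With both drugs it was 1.52-fold of DMSO cells, all 3 above all 3. It was 0.746-fold of prexasertib alone, all 3 below all 3 by a narrow margin (at most 7.62 CPM against at least 7.66 CPM). This sum rests on 179 reads in DMSO cells to 335 reads with prexasertib.

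**Figure D2:**
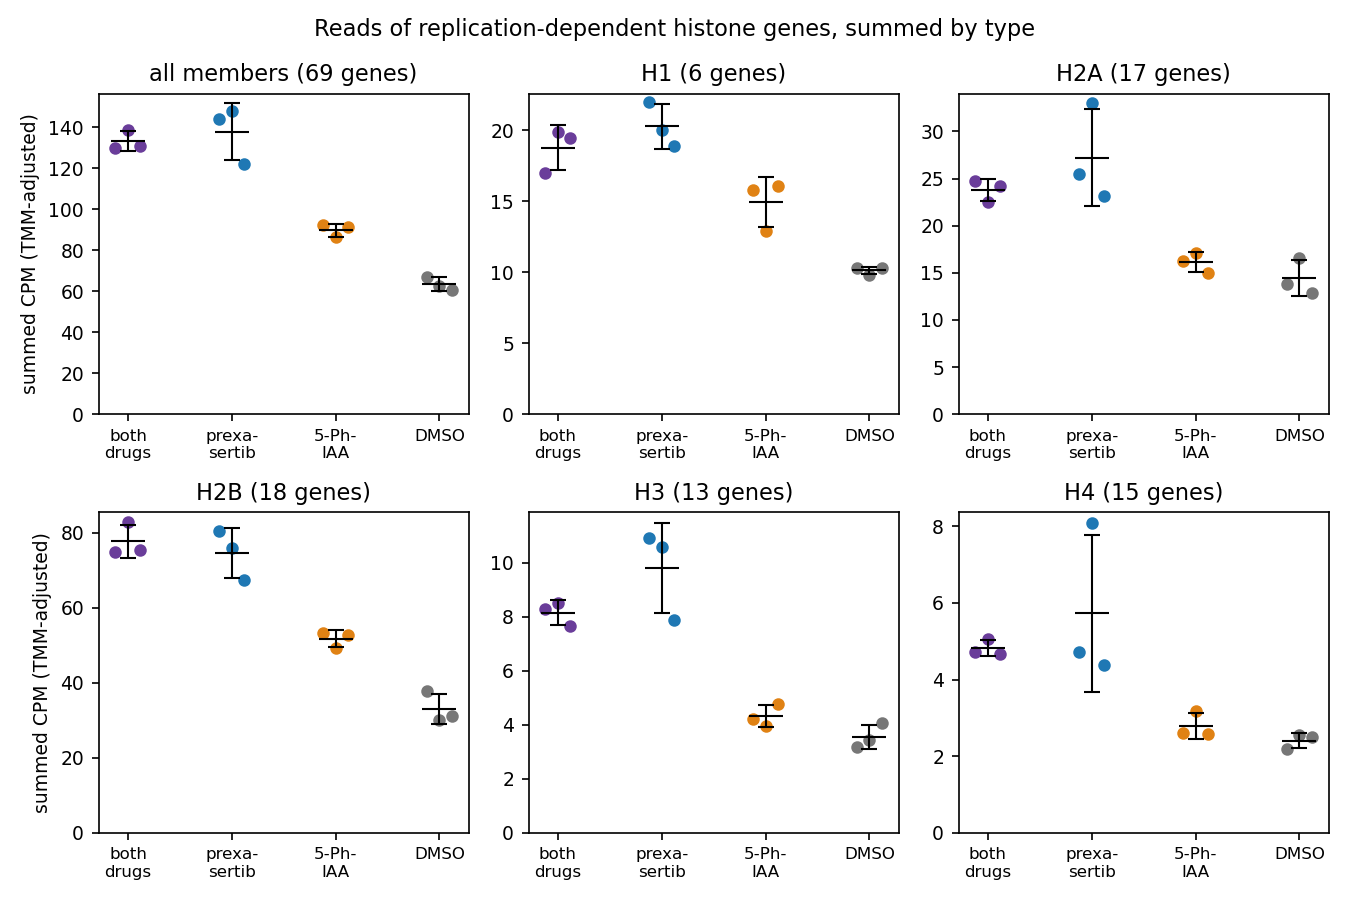
Summed CPM per library for all 69 genes and for each histone type, in cells given both drugs, prexasertib, 5-Ph-IAA or DMSO; points are libraries, horizontal lines are means and bars are SD (n = 3). For all genes together, the 5-Ph-IAA libraries sit at 86.3 to 92.2 CPM, above DMSO at 60.8 to 67.2 CPM and below both prexasertib groups.

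By histone type, each type was higher with prexasertib than in DMSO cells with no overlap of libraries. H2B genes summed to 74.7 ± 6.59 CPM with prexasertib and 33 ± 4.12 CPM in DMSO cells, H1 genes to 20.3 ± 1.61 and 10.1 ± 0.258 CPM, and H2A genes to 27.2 ± 5.08 and 14.4 ± 1.94 CPM (SD, n = 3 each, prexasertib before DMSO). H3 genes, which make the histone that carries the main methylation marks of chromatin, summed to 9.81 ± 1.68 CPM with prexasertib and 3.55 ± 0.452 CPM in DMSO cells, and H4 genes to 5.73 ± 2.04 and 2.41 ± 0.196 CPM. The log2 ratios were 1.18 for H2B, 1.00 for H1, 0.92 for H2A, 1.47 for H3 and 1.25 for H4. With 5-Ph-IAA the log2 ratio to DMSO cells was 0.65 for H2B (51.8 ± 2.23 CPM with 5-Ph-IAA) and 0.56 for H1 (14.9 ± 1.77 CPM), with all libraries higher. It was 0.21 for H4 (2.79 ± 0.344 CPM, all higher), and 0.16 for H2A (16.1 ± 1.05 CPM) and 0.28 for H3 (4.32 ± 0.418 CPM), where the groups overlapped. The H4 value with 5-Ph-IAA rested on H4C8: without that gene the log2 ratio of the other H4 genes was -0.21. The 8 genes that span over 1 kb and the 61 shorter ones had log2 ratios of 1.17 and 1.06 with prexasertib, and of 0.64 and 0.35 with 5-Ph-IAA.

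Prexasertib against DMSO asks what CHK1 inhibition did to histone RNA while TRRAP was present. Of the 18 tested genes, 9 rose and 0 fell (edgeR, adjusted p under 0.05 over all 14658 genes), against 2.36% of all genes that rose and 2.37% that fell. Risers belonged to every type: the linker histone gene H1-2, H2AC6 of H2A, H2BC12, H2BC5, H2BC21 and H2BC18 of H2B, H3C10 and H3C2 of H3, and H4C8 of H4. Of these 9, H2BC18, H3C2 and H4C8 reached the filter's level in no DMSO library. Counts over the 18 therefore describe them without supporting a difference, here and in the comparisons below. The median log2 fold change of the 18 was 1.05, against 0 over all genes tested. All 3 prexasertib libraries lay above all 3 DMSO libraries in 14 of the 18, as they did in 9.78% of all genes. Of the 18, 0 were lower at an unadjusted p under 0.05 in edgeR, here and in the next 3 comparisons. The share of all genes at that threshold is not given here. Limma-voom called the same 9 genes, where 2.25% of all genes were higher. DESeq2 called 10, where 3.88% of the 13233 genes it gave an adjusted p were higher: 7 of the 9, with H2AC11, H2BC11 and H2AC25 added. It gave the other 2 of the 9, H2BC18 and H3C2, no adjusted p.

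H1-2 encodes a linker histone, which binds the DNA where it enters and leaves the nucleosome (chromosome 6, 26055740 to 26056470). It had 20.5, 18.3 and 17.7 CPM with prexasertib, against 9.72, 9.23 and 9.88 CPM in DMSO cells. The groups did not overlap, and H1-2 rose by 0.97 ± 0.12 (log2, SE; edgeR adjusted p = 0.000571). The next 2 H1 genes by level did not pass the filter and were not tested. H1-4 had 0.957, 0.636 and 0.458 CPM with prexasertib and 0.226, 0.44 and 0.233 CPM in DMSO cells, and H1-3 had 0.558, 0.999 and 0.732 CPM with prexasertib and 0.377, 0.176 and 0.156 CPM in DMSO cells. Both were higher in every prexasertib library than in any DMSO library, on few reads.

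H2BC12, an H2B gene of the distal block on chromosome 6 (27138293 to 27146858), had 45.8, 43.1 and 42.9 CPM with prexasertib, against 24.9, 19.3 and 20.9 CPM in DMSO cells. Its libraries did not overlap and it rose by 1.02 ± 0.11 (log2, SE; edgeR adjusted p = 0.00017). H2BC5 (chromosome 6, 26158121 to 26171349), whose promoter above carries both CCAAT and TATAAA, had 16.6, 13.8 and 10.4 CPM with prexasertib and 5.42, 4.92 and 3.81 CPM in DMSO cells, and rose by 1.53 ± 0.22. H2BC21 of chromosome 1 had 9.02, 9.44 and 4.67 CPM with prexasertib and 3.39, 2.29 and 2.33 CPM in DMSO cells, and rose by 1.52 ± 0.27. The third prexasertib library was the lowest of its group in both genes but still above every DMSO library. H2BC18 had 1.6, 2.36 and 2.01 CPM with prexasertib and 0.452, 0.616 and 0.311 CPM in DMSO cells, and rose by 2.10 ± 0.48. The edgeR adjusted p-values were 0.00129 for H2BC5, 0.00589 for H2BC21 and 0.023 for H2BC18. H2BC18 missed the threshold without DMSO replicate 1 or 3 or without prexasertib replicate 1 or 2, with adjusted p up to 0.093.

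Among the H2A genes, H2AC6 (chromosome 6, 26124172 to 26124690) had 12.4, 15.7 and 10.3 CPM with prexasertib, against 5.95, 7.39 and 5.13 CPM in DMSO cells. It rose by 1.06 ± 0.19 (log2, SE; edgeR adjusted p = 0.00651). H2AC25, in the smaller block of chromosome 1, had 7.18, 8.08 and 8.79 CPM with prexasertib and 4.97, 4.31 and 4.82 CPM in DMSO cells. Its libraries did not overlap, yet its log2 fold change of 0.77 ± 0.21 just missed the threshold (edgeR adjusted p = 0.0504). H2AC11 was close as well, at 1.90 ± 0.51 (edgeR adjusted p = 0.0509). With the replicate number as a block, H2AC25 (adjusted p = 0.002), H2AC11 (0.00088) and H2BC11 (0.0065, against 0.0858 without the block) passed too, which gave 12 of 18 genes higher where 8.37% of all genes were. H2AC20 was lower in all 3 prexasertib libraries (0.479, 0.636 and 0.549 CPM) than in DMSO cells (0.753, 1.85 and 0.778 CPM) without passing the test (log2 -1.0 ± 0.53, edgeR adjusted p = 0.368). Its neighbour across the shared promoter region, H2BC21, was the one that rose by 1.52.

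H3C10 (chromosome 6, 27810051 to 27810536) had 5.98, 5.81 and 3.48 CPM with prexasertib, against 1.28, 1.14 and 1.48 CPM in DMSO cells. The groups stood well apart, and H3C10 rose by 1.96 ± 0.27 (log2, SE; edgeR adjusted p = 0.00115). H3C2 had 2.39, 1.91 and 0.915 CPM with prexasertib and 0.0753, 0.0879 and 0.545 CPM in DMSO cells, where the first 2 values stand for single reads. It rose by 2.82 ± 0.65 (edgeR adjusted p = 0.0244), and missed the threshold without DMSO replicate 1 or 2 or without prexasertib replicate 1 or 2 (adjusted p up to 0.11). H3C6 had 1.52, 1.45 and 1.19 CPM with prexasertib and 0.527, 0.967 and 0.545 CPM in DMSO cells, a log2 difference of 1.04 ± 0.45 that did not pass (edgeR adjusted p = 0.245). H4C8 (chromosome 6, 26285126 to 26285534) had 1.76, 2.54 and 1.83 CPM with prexasertib and 0.377, 0.44 and 0.545 CPM in DMSO cells. It rose by 2.15 ± 0.35 (edgeR adjusted p = 0.00362). H4C5, below the filter, had 0.798, 1.36 and 0.824 CPM with prexasertib and 0.452, 0.176 and 0.156 CPM in DMSO cells.

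**Figure D3:**
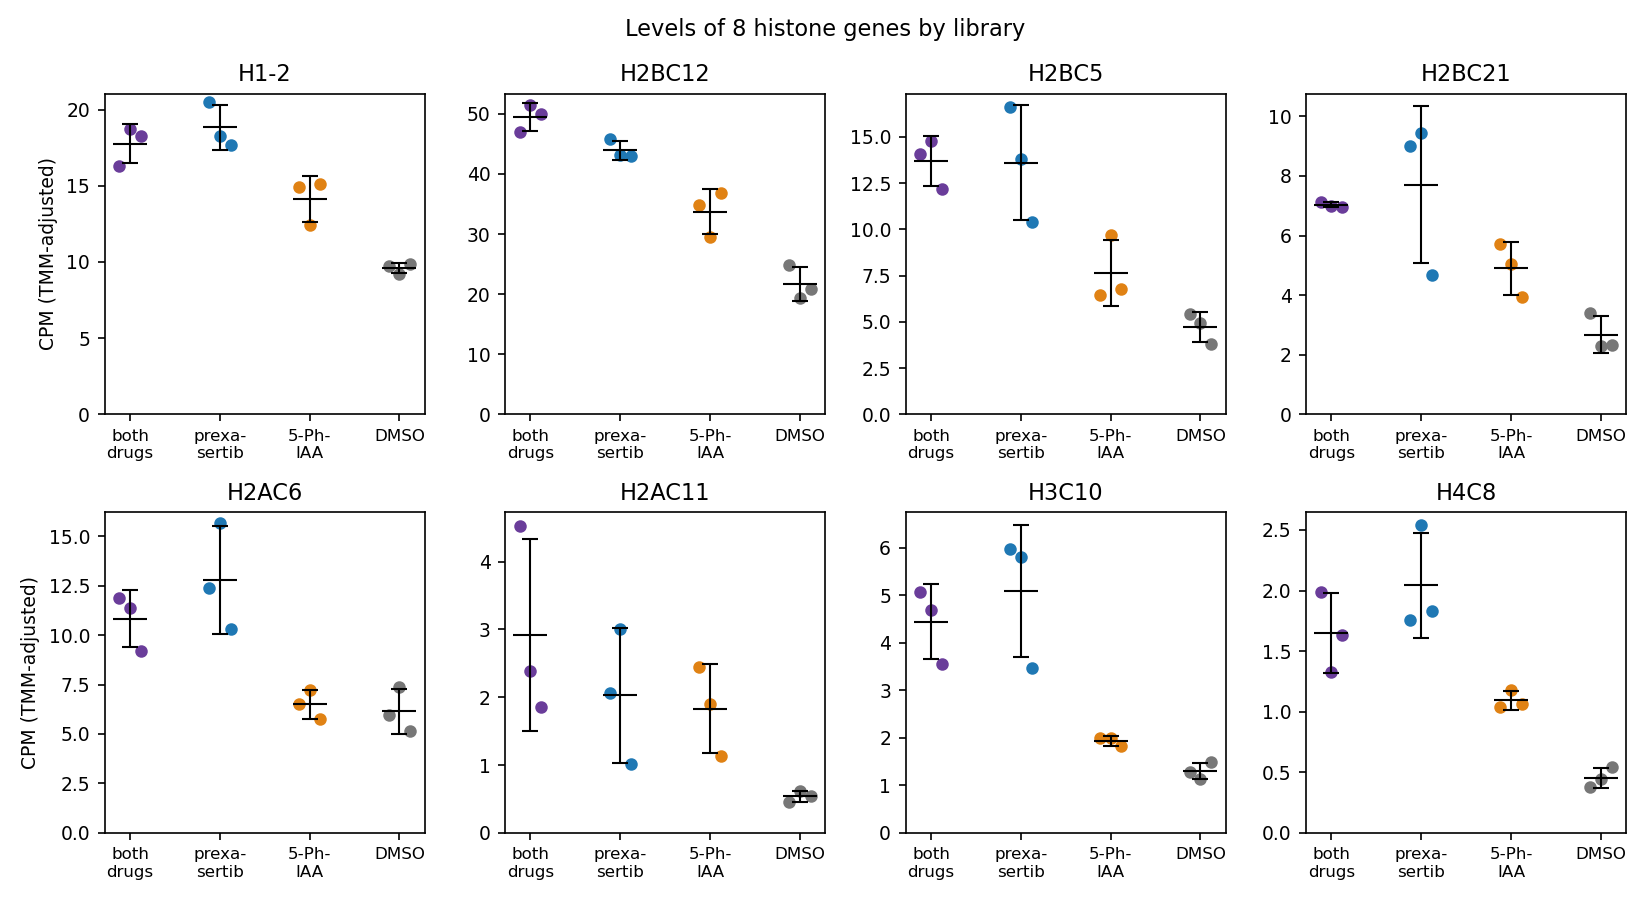
CPM per library of 8 histone genes in cells given both drugs, prexasertib, 5-Ph-IAA or DMSO; points are libraries, horizontal lines are means and bars are SD (n = 3). H2AC6 sits at 5.76 to 7.24 CPM with 5-Ph-IAA and 5.13 to 7.39 CPM in DMSO cells, whereas H2BC12 with 5-Ph-IAA (29.5 to 36.8 CPM) lies above DMSO (19.3 to 24.9 CPM).

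The comparison of 5-Ph-IAA with DMSO asks what degradation of TRRAP did without CHK1 inhibition. Of the 18 tested genes, 6 rose and 0 fell (edgeR), against 9.65% of all genes that rose and 12.2% that fell. The risers were H1-2, H2AC11, H2BC12, H2BC5, H2BC21 and H4C8, and the median log2 fold change of the 18 was 0.60, against 0.01 over all genes tested. Of these 6, H2AC11 and H4C8 reached the filter's level in no DMSO library. All 3 libraries with 5-Ph-IAA lay above all 3 DMSO libraries in 10 of the 18, as in 18.5% of all genes. Limma-voom called 3 of the 6, where 9.93% of all genes were higher, and not H2AC11, H2BC5 or H2BC21 (adjusted p = 0.062, 0.056 and 0.065). DESeq2 called 5, where 10.2% of the 14654 genes it gave an adjusted p were higher, and not H4C8 (adjusted p = 0.051).

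H2BC12 had 34.8, 29.5 and 36.8 CPM with 5-Ph-IAA, against 24.9, 19.3 and 20.9 CPM in DMSO cells, and rose by 0.63 ± 0.11 (log2, SE; edgeR adjusted p = 0.00128). H1-2 had 14.9, 12.4 and 15.1 CPM with 5-Ph-IAA, against 9.72, 9.23 and 9.88 CPM in DMSO cells, and rose by 0.55 ± 0.12 (edgeR adjusted p = 0.00597). These calls held whichever library was left out. H2AC11, an H2A gene of the distal block, had 2.45, 1.9 and 1.14 CPM with 5-Ph-IAA, against 0.452, 0.616 and 0.545 CPM in DMSO cells. It rose by 1.76 ± 0.51 (edgeR adjusted p = 0.0242), a larger fold change than those of the other 5 risers, from a low level. H2BC5 had 6.46, 9.7 and 6.75 CPM with 5-Ph-IAA and rose by 0.70 ± 0.22, H2BC21 had 5.71, 5.03 and 3.94 CPM and rose by 0.87 ± 0.27, and H4C8 had 1.04, 1.18 and 1.06 CPM and rose by 1.26 ± 0.36. In each of these 3 genes the 5-Ph-IAA libraries lay above the DMSO libraries given before. Their edgeR adjusted p-values were 0.0341, 0.0364 and 0.0244 in that order.

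Those smaller calls depended on single libraries. H2BC5 missed the threshold when DMSO replicate 2 or 3, or 5-Ph-IAA replicate 2, was left out (adjusted p up to 0.17). H4C8 missed it without replicate 1 or 2 of DMSO or of 5-Ph-IAA (up to 0.087), and H2AC11 without any 1 DMSO library or 5-Ph-IAA replicate 1 or 2 (up to 0.088). H2BC21 missed it without DMSO replicate 2 or 3, or replicate 1 or 2 of 5-Ph-IAA or of both drugs (up to 0.12). In the fits lacking replicate 2 of DMSO or of 5-Ph-IAA, 2 of the 18 genes were called, H1-2 and H2BC12, and without 5-Ph-IAA replicate 1 H2BC5 was called with them. The fit with all libraries called 9.65% of all genes higher, and the share in these smaller fits is not given here. The fit with the replicate block called 7, where 19% of all genes were called higher, the addition being H3C2 (adjusted p = 0.025, against 0.089 without the block).

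Some markers of cell types were also called with 5-Ph-IAA against DMSO. Of 10 tested epithelial markers 2 fell with 5-Ph-IAA and 0 rose, where 12.2% of all genes fell and 9.65% rose. The 2 that fell were the keratin genes KRT7, by 0.30 ± 0.069 (log2, SE; edgeR adjusted p = 0.0068), and KRT8, by 0.34 ± 0.1 (0.028). The call of KRT8 was lost without DMSO replicate 1 or 2 or any 1 5-Ph-IAA library (adjusted p up to 0.096), and both calls were lost with scaling by library size alone (0.089 and 0.24). Of 7 tested markers of other cell types 1 rose, where 9.65% of all genes rose. It was PDGFRB, a growth factor receptor gene of fibroblasts and pericytes. PDGFRB had 2.67, 2.46 and 2.43 CPM with 5-Ph-IAA and 0.829, 1.32 and 0.622 CPM in DMSO cells (1.45 ± 0.34, edgeR adjusted p = 0.0084). The part of these shifts in the histone changes was not tested.

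H2AC6 had 6.53, 7.24 and 5.76 CPM with 5-Ph-IAA, against 5.95, 7.39 and 5.13 CPM in DMSO cells, a log2 difference of 0.09 ± 0.20 (edgeR adjusted p = 0.793). The 2 groups overlapped, as they did in H2AC25, where the difference was 0.16 ± 0.21 (edgeR adjusted p = 0.627). H2BC18 also overlapped, at 0.594, 0.205 and 0.531 CPM with 5-Ph-IAA and 0.452, 0.616 and 0.311 CPM in DMSO cells (log2 -0.10 ± 0.55). H3C10 was higher in all 3 libraries with 5-Ph-IAA (2, 2 and 1.82 CPM) than in DMSO cells (1.28, 1.14 and 1.48 CPM), but its log2 difference of 0.57 ± 0.28 did not pass the test (edgeR adjusted p = 0.171). The H4 genes outside the 2 tested ones summed lower in every 5-Ph-IAA library, with a log2 ratio of -0.69. One of them, H4C5, had 0.148, 0.103 and 0.152 CPM with 5-Ph-IAA and 0.452, 0.176 and 0.156 CPM in DMSO cells, which rests on few reads.

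**Figure D4:**
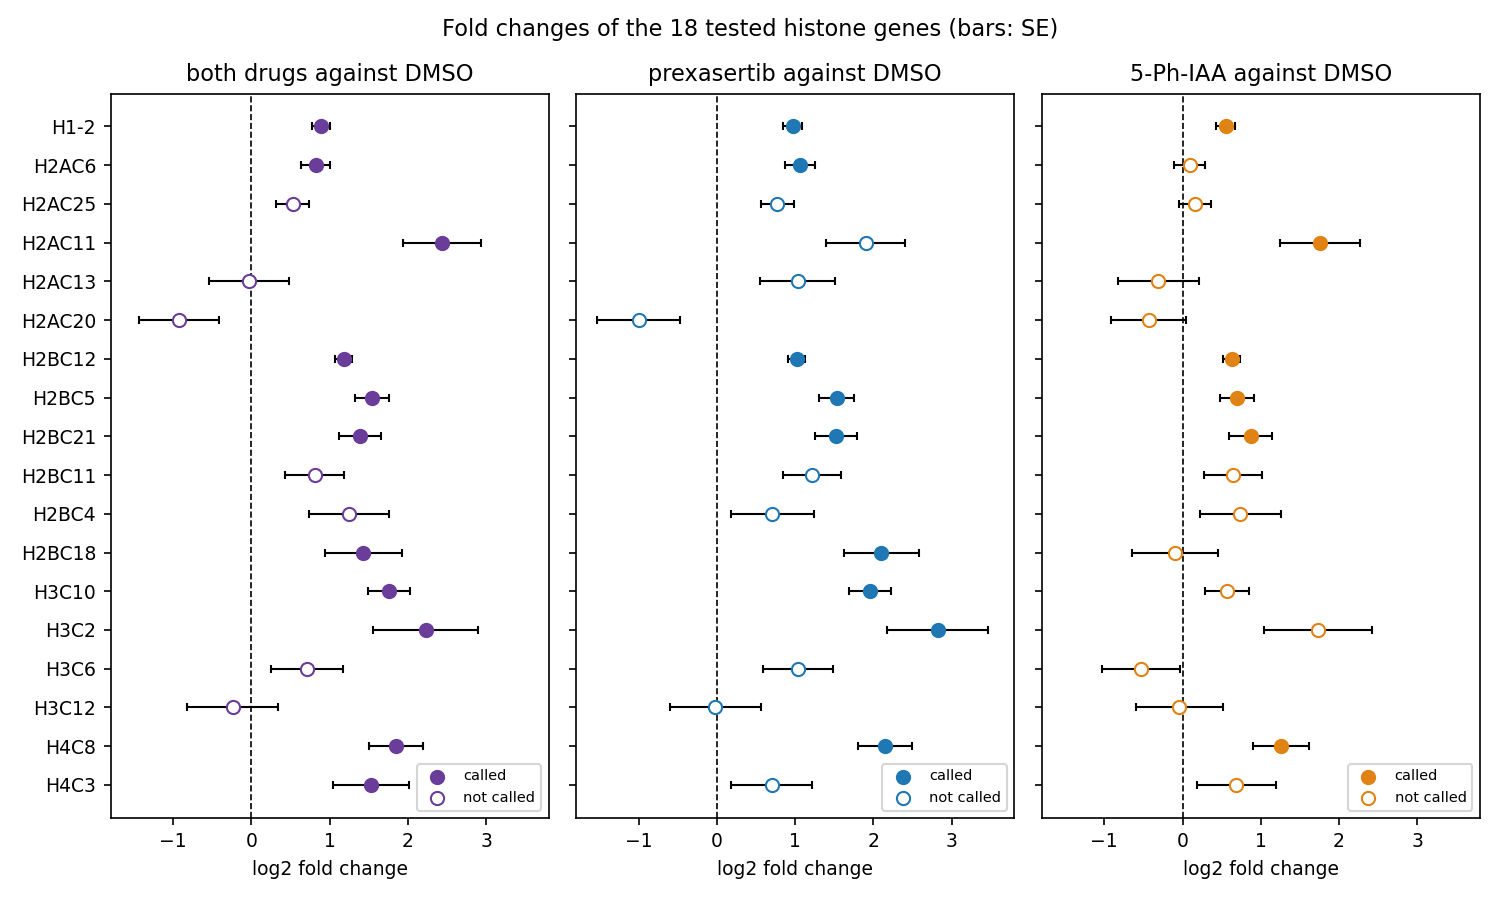
Log2 fold changes against DMSO of the 18 tested histone genes, for both drugs, prexasertib and 5-Ph-IAA; bars are SE and filled points passed the edgeR test. Filled points number 11 with both drugs, 9 with prexasertib and 6 with 5-Ph-IAA, and every filled point lies right of 0.

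With both drugs, 11 of the 18 genes rose against DMSO cells and 0 fell (edgeR), against 11.8% of all genes that rose and 14.2% that fell. The median log2 fold change was 1.21, against 0.01 over all genes tested, and 13 of the 18 had all 3 libraries above DMSO, as in 19.7% of all genes. Of the 11, H2AC11, H2BC18, H3C2, H4C3 and H4C8 reached the filter's level in no DMSO library. The counts over the 18 therefore describe them without supporting a difference. H2BC12 had 46.9, 51.4 and 50.0 CPM with both drugs, against 24.9, 19.3 and 20.9 CPM in DMSO cells, and rose by 1.18 ± 0.11 (log2, SE; edgeR adjusted p = 1.2e-05). H2AC11 had 4.53, 2.39 and 1.85 CPM with both drugs, against 0.452, 0.616 and 0.545 CPM in DMSO cells, and rose by 2.44 ± 0.50 (edgeR adjusted p = 0.00285). Both groups stood apart in these 2 genes. H1-2 had 16.3, 18.7 and 18.3 CPM with both drugs and rose by 0.89 ± 0.12, and H2AC6 had 11.9, 11.4 and 9.19 CPM and rose by 0.82 ± 0.19. H2BC5 rose by 1.54 ± 0.22, H2BC21 by 1.39 ± 0.27, H3C10 by 1.76 ± 0.27 and H4C8 by 1.85 ± 0.35. For these 6 genes, adjusted p in edgeR lay between 0.000204 (H1-2) and 0.00709 (H2AC6).

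The other 3 risers of this comparison had few reads. H4C3 had 0.686, 2.04 and 1.56 CPM with both drugs, against 0.377, 0.528 and 0.545 CPM in DMSO cells, and rose by 1.53 ± 0.49 (log2, SE; edgeR adjusted p = 0.0332). H2BC18 had 1.17, 1.86 and 0.741 CPM with both drugs and rose by 1.43 ± 0.49 (edgeR adjusted p = 0.0473), and H3C2 had 0.617, 1.33 and 1.56 CPM and rose by 2.23 ± 0.67 (edgeR adjusted p = 0.0255). In each of the 3 genes the libraries with both drugs lay above the DMSO libraries, but the calls were fragile. H2BC18 missed the threshold in 10 of 12 fits that left out 1 library, all but those without 5-Ph-IAA replicate 2 or both-drugs replicate 3 (adjusted p up to 0.19). H4C3 missed it without any 1 DMSO library or both-drugs replicate 2 or 3 (up to 0.14), and H3C2 without DMSO replicate 1 or 2 or both-drugs replicate 2 or 3 (up to 0.099). The replicate block added H2AC25 (adjusted p = 0.019, against 0.0742) and H2BC4 (0.013, against 0.0882), which made 13, where 21.2% of all genes were called higher.

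Adding prexasertib to 5-Ph-IAA raised 3 of the 18 genes and lowered 0 (edgeR), against 1.17% and 1.26% of all genes. H2BC12 had 46.9, 51.4 and 50.0 CPM with both drugs, against 34.8, 29.5 and 36.8 CPM with 5-Ph-IAA alone, and rose by 0.56 ± 0.11 (log2, SE; edgeR adjusted p = 0.0121). H3C10 had 5.08, 4.7 and 3.56 CPM with both drugs, against 2, 2 and 1.82 CPM with 5-Ph-IAA alone, and rose by 1.19 ± 0.26 (edgeR adjusted p = 0.0243). H2BC5 had 14.1, 14.8 and 12.2 CPM with both drugs, against 6.46, 9.7 and 6.75 CPM with 5-Ph-IAA alone, and rose by 0.83 ± 0.20 (edgeR adjusted p = 0.0491). The groups did not overlap in any of the 3 genes. Each call was lost in some fits that left out 1 library: H2BC12 without 5-Ph-IAA replicate 2 or both-drugs replicate 2 (adjusted p up to 0.078), H3C10 without any 1 5-Ph-IAA library or both-drugs replicate 1 or 2 (up to 0.12), and H2BC5 in 9 of 12 such fits, all but those without DMSO replicate 3, prexasertib replicate 3 or 5-Ph-IAA replicate 2 (up to 0.22). No gene of the 18 was called without both-drugs replicate 2. With the replicate block 7 genes rose, where 7.8% of all genes did, the additions being H1-2 (adjusted p = 0.043), H2AC6 (0.00024), H2BC21 (0.045) and H2BC18 (0.023). Over the 18 genes the median log2 fold change was 0.54, and all 3 libraries with both drugs lay above all 3 with 5-Ph-IAA in 9, as in 8.87% of all genes.

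Adding 5-Ph-IAA to prexasertib gave no called histone gene: 0 of 18 rose and 0 fell (edgeR), where 7.85% of all genes rose and 10.4% fell. DESeq2 and limma-voom also called 0. In edgeR 1 gene of the 18, H2AC13, had an unadjusted p under 0.05, for which the share of all genes is not given here. H2BC12 had 46.9, 51.4 and 50.0 CPM with both drugs and 45.8, 43.1 and 42.9 CPM with prexasertib alone. Those libraries did not overlap, by a narrow margin, and the log2 difference of 0.17 ± 0.11 did not pass (edgeR adjusted p = 0.305). H1-2 had 16.3, 18.7 and 18.3 CPM with both drugs and 20.5, 18.3 and 17.7 CPM with prexasertib alone, a difference of -0.09 ± 0.12 (edgeR adjusted p = 0.679). H2AC13 had 1.03, 0.798 and 1.26 CPM with both drugs and 2.23, 3.09 and 1.19 CPM with prexasertib alone. Its log2 difference of -1.06 ± 0.48 did not pass. It passed with the replicate block (-1.0, adjusted p = 0.048), the 1 histone gene called lower under the block, where 19.9% of all genes were, and without the 4 libraries numbered 3 (-1.51, adjusted p = 0.012).

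The interaction compares the effect of prexasertib with and without 5-Ph-IAA on the log2 scale. No gene of the 14658 passed, histone genes included, in edgeR, and DESeq2 called 0 and limma-voom 0 of the 18. At an unadjusted p under 0.05 there were 6 of the 18, and in all 6 the rise with prexasertib was smaller when 5-Ph-IAA was present, a direction in which 1.61% of all genes passed that threshold. Of the 18, 15 had a negative interaction, with a median of -0.60, against 0.01 over all genes tested. Examples with values are H1-2 at -0.64 ± 0.17, H2BC12 at -0.46 ± 0.15 and H4C8 at -1.55 ± 0.47 (log2, SE; edgeR adjusted p = 1 for each). With the replicate block 0.655% of all genes passed and 0 of the 18 did, with H1-2 at adjusted p = 0.068 and H2BC12 at 0.08. So the data do not establish, for any histone gene, that the effect of prexasertib differed with 5-Ph-IAA.

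The genes listed as replication-independent histone variants, most of whose mRNAs carry a poly(A) tail, moved the other way with 5-Ph-IAA. They include H2AX, which marks DNA breaks, CENPA of the centromere, H2AZ1, and H3-3A and H3-3B, which encode H3.3. With 5-Ph-IAA 10 of 12 tested variants fell and 0 rose against DMSO cells, where 12.2% of all genes fell and 9.65% rose. H2AX had 92.5 ± 6.87 CPM with 5-Ph-IAA and 225 ± 17 CPM in DMSO cells (SD, n = 3 each) and fell by 1.28 ± 0.088 (log2, SE; edgeR adjusted p = 9.9e-07). CENPA had 31.5 ± 3.16 CPM with 5-Ph-IAA and 81.3 ± 4.8 CPM in DMSO cells and fell by 1.37 ± 0.11 (edgeR adjusted p = 2.9e-06). H2AZ1 fell by 0.60 ± 0.16 (edgeR adjusted p = 0.019), and missed the threshold when DMSO replicate 3, or 5-Ph-IAA replicate 1 or 2, was left out (up to 0.079). With scaling by library size alone, which raises the median of all genes by 0.16 in this comparison, 6 of the 10 stayed called; H2AZ2, H3-3A and MACROH2A1 were among those that did not. With prexasertib, against DMSO cells, 1 variant rose (2 with the replicate block), where 2.36% of all genes rose (8.37% with the block). The variant called without the block was H3-3B, which rose by 0.30 ± 0.07 (edgeR adjusted p = 0.026). The call of H3-3B was lost without DMSO replicate 2 or 3 or prexasertib replicate 1 or 2 (adjusted p up to 0.11). H2AX (log2 0.06 ± 0.086), H2AZ1 (0.01 ± 0.16), H3-3A (-0.03 ± 0.065) and the linker variant H1-10 (-0.22 ± 0.12) did not pass with prexasertib. With both drugs 5 of the 12 fell against DMSO cells and 0 rose, where 14.2% and 11.8% of all genes did.

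Genes that act on histone mRNA were counted in the same fit. Of 32 genes of histone mRNA processing and export, 10 fell and 1 rose with 5-Ph-IAA against DMSO cells, and 0 fell and 2 rose with prexasertib (1 and 5 with the replicate block). Over all genes 12.2% fell and 9.65% rose with 5-Ph-IAA, and 2.37% fell and 2.36% rose with prexasertib (9.77% and 8.37% with the block). With scaling by library size alone 7 of the 10 lowered by 5-Ph-IAA stayed called, where 986 of the 14658 genes were lower. SLBP, which binds the stem-loop, had 42.8 ± 3.21 CPM with 5-Ph-IAA and 62.3 ± 8.3 CPM in DMSO cells (SD, n = 3 each) and fell by 0.55 ± 0.11 (log2, SE; edgeR adjusted p = 0.0035). With prexasertib SLBP had 61.6 ± 5.12 CPM, a difference of -0.02 ± 0.11 from DMSO cells (edgeR adjusted p = 0.97). SRSF7 and SRSF3, splicing factors that also serve mRNA export, fell with 5-Ph-IAA by 0.81 ± 0.079 and 0.63 ± 0.071 (edgeR adjusted p = 1.4e-05 and 4.8e-05). CSTF2, a cleavage factor of polyadenylation, was the 1 that rose, by 0.33 ± 0.086 (edgeR adjusted p = 0.015), though not when DMSO replicate 2 or 5-Ph-IAA replicate 3 was left out (adjusted p up to 0.064). With prexasertib the risers were the export receptor gene NXF1 (0.71 ± 0.15) and the scaffold gene SYMPK (0.30 ± 0.063). The call of NXF1 was lost without DMSO replicate 1 or 3 or prexasertib replicate 1 or 2 (adjusted p up to 0.083), and that of SYMPK without DMSO replicate 1 or prexasertib replicate 2 (up to 0.068). CASP8AP2 (FLASH), LSM10 and LSM11, all parts of the histone cleavage machinery, did not pass in any of the 6 comparisons, and neither did the transcription regulators NPAT and HINFP.

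Among 23 genes of histone mRNA translation and decay, 1 rose and 0 fell with 5-Ph-IAA, where 9.65% of all genes rose and 12.2% fell. The riser was the exonuclease gene XRN1, by 0.75 ± 0.11 (log2, SE; edgeR adjusted p = 0.00037). The replicate block gave 3 higher and 8 lower with 5-Ph-IAA, where 19% and 23.6% of all genes were. With prexasertib 0 passed (edgeR), while 3 did at an unadjusted p under 0.05, for which the share of all genes is not given here. With the replicate block 1 rose and 3 fell with prexasertib, where 8.37% and 9.77% of all genes did. Of 21 tested genes of histone gene transcription, 4 fell and 0 rose with 5-Ph-IAA and 2 rose and 0 fell with prexasertib (NFYB and WEE1), of which 1 and 0 remained with scaling by library size alone. The 4 that fell with 5-Ph-IAA are 4 of 21, where 12.2% of all genes fell. The 2 that rose with prexasertib are 2 of 21, where 2.36% of all genes rose. The replicate block gave 8 lower and 1 higher with 5-Ph-IAA, where 23.6% and 19% of all genes were called, and 6 lower and 3 higher with prexasertib, where 9.77% and 8.37% were. Leaving out 1 library removed the call of NFYB in 8 of 12 fits and that of WEE1 in 9, with adjusted p up to 0.15 for both. NPAT itself had 17.4 ± 3.36 CPM in cells given prexasertib, 23.8 ± 2.27 CPM after 5-Ph-IAA and 21.5 ± 1.99 CPM in DMSO cells (SD, n = 3 each). Of 23 histone chaperone genes, 11 fell with 5-Ph-IAA, where 12.2% of all genes fell, among them ANP32E by 1.07 ± 0.083 and KPNB1 by 0.51 ± 0.062. With prexasertib 1 chaperone gene fell, where 2.37% of all genes did. It was the chromatin assembly factor gene CHAF1A, which fell by 0.64 ± 0.085 (edgeR adjusted p = 0.00084). With the replicate block 2 chaperone genes fell and 2 rose with prexasertib, where 9.77% and 8.37% of all genes did. With scaling by library size alone 6 of the 11 lowered by 5-Ph-IAA stayed called.

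Of 49 S-phase genes, which encode replication factors, 10 fell and 1 rose with prexasertib, 23 fell and 0 rose with 5-Ph-IAA, and 32 fell and 0 rose with both drugs, each against DMSO cells (edgeR). Over all genes 2.37%, 12.2% and 14.2% fell in these 3 comparisons, and 2.36%, 9.65% and 11.8% rose. The replicate block gave 23 lower with prexasertib and 36 lower with 5-Ph-IAA, where 9.77% and 23.6% of all genes were. With scaling by library size alone 17 of the 23 lowered by 5-Ph-IAA and 27 of the 32 lowered by both drugs stayed called. In that fit 986 and 1438 of the 14658 genes were lower. All 10 lowered by prexasertib stayed called. The S-phase genes' median log2 fold changes were -0.23, -0.38 and -0.52 in the order prexasertib, 5-Ph-IAA, both drugs, whereas those of the 18 histone genes were 1.05, 0.60 and 1.21. CHAF1A and UHRF1 had the smallest adjusted p among the fallers with prexasertib (0.00084 and 0.00091), with UHRF1 down by 0.67 ± 0.09 (log2, SE; edgeR). The 1 riser was PCNA, the sliding clamp of replication, by 0.33 ± 0.077 (edgeR adjusted p = 0.027), lost without DMSO replicate 1 or 2 or any 1 prexasertib library (up to 0.11). RRM2, a subunit of ribonucleotide reductase, fell with 5-Ph-IAA by 1.89 ± 0.14 (edgeR adjusted p = 2e-06).

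RNAs that lack a poly(A) tail by their biology were measured as a gauge of how much such RNA entered the libraries. The 50 of them in the table summed to 29.2 to 50.3 CPM per library with both drugs, 23.7 to 64.8 CPM in cells given prexasertib, 18 to 51.2 CPM after 5-Ph-IAA and 25.9 to 43.4 CPM in DMSO cells, and 8 had no read. The 4 ranges overlapped. Of the 7 that could be tested, 0 were called with prexasertib and 0 with 5-Ph-IAA (edgeR; also 0 with the replicate block, and 1 and 0 at an unadjusted p under 0.05). RN7SK, the RNA of the particle that holds back transcription elongation, had 1.2, 0.999 and 1.1 CPM with prexasertib, against 0.377, 0.352 and 0.311 CPM in DMSO cells. Its libraries did not overlap, on few reads, and its log2 difference of 1.64 ± 0.66 did not pass (edgeR adjusted p = 0.21; 0.051 with the replicate block). With both drugs against DMSO cells it differed by 1.49 ± 0.67 (edgeR adjusted p = 0.12), and passed with the block (0.043). SCARNA12 was lower with both drugs than in DMSO cells (-1.48 ± 0.47, edgeR adjusted p = 0.034), a call lost without replicate 1 or 2 of either group (adjusted p up to 0.094). The part of carried-over RNA without a tail in the histone counts was not tested further.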

How the data were processed

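RNA was measured in 12 poly(A)-selected, directional libraries. The deposited values are whole-number read counts by gene that the authors left unnormalized. Per the submitters' processing notes, featureCounts 2.0.8 and limma 3.58.1 were used with hg38, while no source used here gives the aligner, annotation or strand setting. The 13 CUT&RUN samples are not analysed here. Of 28395 IDs, 27745 matched a symbol; the other 650 held 0.0324% of counts.

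The tests used edgeR 4.0.16 under R 4.3.3, with filterByExpr (minimum count 10, total 15), TMM scaling, and a robust quasi-likelihood F-test over all 12 libraries with 1 mean per group, adjusted by Benjamini-Hochberg over 14658 genes; genes were called at adjusted p under 0.05. An SE was obtained as the log2 fold change over the root of its F. CPM values use TMM-adjusted library sizes. The factors lay at 0.925 to 0.978 in libraries without 5-Ph-IAA, against 1.02 to 1.1 in the others. The fit was checked on simulated counts that had the same spread for every gene and no effect of the replicate number. That check does not bear on the calls of single histone genes.

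Same-numbered libraries of compared groups deviated together (correlations 0.22 to 0.633 over genes in all 15 pairs). The main tests did not use these numbers, which come from the titles, so their p-values ignore the pairing. Only the alternative with the replicate block took it into account. The biological coefficient of variation was 12.8%, and 5.72% with the replicate block. The labels do not say whether libraries came from separate cultures, so p-values cover only the spread among these libraries. Alternatives were RLE factors, library size alone, DESeq2 1.42.0, limma-voom, no filter, a filter at a mean of 1 CPM, the replicate block and leaving out each library. The members and lists were chosen with earlier results of these data known. Genes named from other lists were the 2 called ones with the smallest adjusted p in each direction and a set of known histone regulators. The values of 1 gene of the variant list are not reported here, and the variants that fell with prexasertib are not counted in the text.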

Additional observations from a re-analysis of the deposited data

How the results depend on the processing

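With 3 libraries a group and 712 to 1891 histone reads in each, genes near 1 CPM rest on few reads. RLE factors, DESeq2, no filter and a filter at a mean of 1 CPM left each count of called histone genes within 1.5 times. Limma-voom called 3 higher with 5-Ph-IAA, where 9.93% of all genes were. The replicate block gave 7 higher with both drugs against 5-Ph-IAA and 1 lower against prexasertib, where 7.8% and 19.9% of all genes were. Library size alone moved the median of all genes by 0.16 (5-Ph-IAA), 0.11 (both drugs) and 0.15 (both drugs against prexasertib). In the last it called 1 histone gene higher (H2BC12), where 2569 of the 14658 genes were. Against DMSO it called 6 of the 18 higher with 5-Ph-IAA and 12 with both drugs, where 3018 and 2696 of the 14658 genes were. The summed log2 ratios became 0.66 (5-Ph-IAA against DMSO), 1.17 (both drugs against DMSO), 0.52 (both drugs against 5-Ph-IAA) and 0.09 (both drugs against prexasertib). Without H2BC12 the sums gave 0.43, 1.00 and -0.16 for 5-Ph-IAA, both drugs against DMSO, and both drugs against prexasertib; without H4C8 the H4 sum with 5-Ph-IAA gave -0.21. Leaving out 1 library gave 7 to 11 higher genes with prexasertib, 2 to 6 with 5-Ph-IAA, 8 to 11 with both drugs and 0 to 3 with both drugs against 5-Ph-IAA. The share of all genes called in these fits, and in the fit described next, is not given here. Without the 4 libraries numbered 3, an alternative chosen after seeing the data, 1 gene was lower with both drugs against DMSO (H2AC20), 5 were higher against 5-Ph-IAA, 1 was lower against prexasertib (H2AC13), and 2 passed the interaction, both lower (H2BC21 and H3C2). The cause of these differences was not tested.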
